A study of Homo sapiens with 11 samples.

Results

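The p53 target genes described here are 10 genes that the transcription factor p53 activates: CDKN1A, MDM2, ZMAT3, BBC3, BAX, FAS, SESN1, TP53I3, RRM2B and GDF15. They were found by gene symbol among 60605 features listed in the deposited table, each on 1 row, and all 10 were among the 18828 genes tested. PolyA RNA had been sequenced in 11 libraries from ARPE-19, an established cell line grown from human retinal pigment epithelium (RPE). Stable lines carried an open reading frame for GFP (a fluorescent protein, the control, 3 libraries) or for Oct4, Sox2, Klf4 or all 3 of them (OSK), with 2 libraries each. All were taken after 4 days of expression, so the control shares the cell line and the time. The library names of all factor lines carry the letters mC, which those of the control lack and which the labels do not explain, so the lines may differ from the control in more than the factor. The labels give no promoter, no species of the reading frames, no clone and no sequencing batch. Nothing in them says that replicates came from separate cultures, so p-values measure only the spread between these libraries, which may be technical.

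p53 is a stress-activated transcription factor that halts the cell cycle or starts apoptosis by switching on target genes. The product of CDKN1A, p21, inhibits cyclin-dependent kinases, and the product of MDM2 marks p53 itself for degradation. In reprogramming to pluripotency this response is known as a barrier, because loss of p53 or p21 raises the yield of induced pluripotent cells. KLF4 is known to activate CDKN1A. The libraries were read for whether any factor, alone or in combination, moved these genes together.

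p53 binds a pair of adjoining half-sites of 10 bases each, and such an element was searched for near the transcription starts. RefSeq windows (GRCh38.p14) of 300 bases, from 250 before to 50 after each annotated start, held 17 starts of 9 of the 10 genes. An element with at most 3 mismatches to the p53 consensus was found in 5 of the 17 windows (29.4%), belonging to 4 genes, and in 5.2% of 35114 windows of all genes. Windows of neighbouring MDM2 starts overlap and hold the same element, which is thus counted more than once. The 10 genes were picked as p53 targets, so the higher share is no result of these libraries. The elements are shown because the results for these 4 genes differ from each other. Capitals mark the element, written 5′ to 3′ on the gene's strand.
FAS: ctcctGGACAAGCCCTGACAAGCCAagcca
MDM2: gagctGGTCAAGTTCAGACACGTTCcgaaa
SESN1: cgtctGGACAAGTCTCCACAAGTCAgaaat
GDF15: tgcacAGCCATGCCCGGGCAAGAACtc
The FAS stretch lies on the plus strand at chr10:88991304-88991333, in an annotated exon, and its element has 2 mismatches. That of MDM2 lies on the plus strand at chr12:68808918-68808947, in an intron before the internal MDM2 start, also with 2 mismatches. An element with at most 2 mismatches was in 0.649% of all windows. That of SESN1 lies on the minus strand at chr6:109009013-109009042, in an intron before the most downstream SESN1 start, and that of GDF15 on the plus strand at chr19:18386181-18386207, in an annotated UTR. Both have 3 mismatches. The windows of CDKN1A, BBC3, BAX, TP53I3 and ZMAT3 held none. A match describes letters only, and these windows are short, so sites farther from a start are not covered.

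The CDKN1A window held 4 copies of GGGCGG, the GC box that Sp1 and Klf proteins bind, counted on both strands with overlaps allowed. A GC box was in 14 of the 17 windows, among them SESN1 windows with 5 and 8 copies, and in 45% of all windows. The 30 bases at chr6:36678662-36678691 on the plus strand hold a pair of them, in capitals, in a stretch that GENCODE 29 places in a UTR of a longer transcript.
CDKN1A: cgggcccGGGCGGGGCGGttgtatatcagg

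Recovered depth was 15053300 to 19791775 reads per library. GFP replicate 1 stood apart, with 42956 features detected against 26448 and 26509 in the other GFP libraries, and OSK replicate 1 had 32493 against 26428 in OSK replicate 2. Of 12 RPE markers, 10 were tested. RPE65 had at most 4.63 normalised counts in any library and TTR at most 4.97, while MITF, a factor of pigment cells, had 3263 to 3603 in the GFP libraries. The summed level of the 12 markers was 33400 to 37100 in GFP and 15800 to 28700 in the factor lines. Most of it was KRT8 and KRT18 (15677 to 16426 and 5173 to 5617 reads in GFP). The pigment gene PMEL had 90 and 210 reads with Sox2 against 4123 to 6241 in GFP. With Oct4, Sox2, Klf4 and OSK, 90%, 60%, 40% and 90% of the tested markers were lower (limma adjusted p under 0.05). Over all genes the shares were 17.2%, 19.9%, 16% and 20%. A rise was called for 1 marker, with Klf4. Fibroblast markers summed to 13900 to 16400 in GFP and 5150 to 15500 in the factor lines. Nearly all of this was PDGFRB and COL1A1 (10950 to 11693 and 2904 to 4789 reads in GFP). The others listed, COL1A2, PDGFRA, DCN, LUM and THY1, had at most 72 reads in any library. Leukocyte markers summed to at most 33.8 and endothelial markers to at most 124, both in GFP replicate 1, where VWF had 73.5 and CDH5 29.8 against at most 2.02 in the other GFP libraries. KRT14, of keratinocytes, had 111 and 147 in the Klf4 libraries and at most 12.9 elsewhere, again in GFP replicate 1. The other keratinocyte markers did not follow it. KRT5, KRT1 and DSG3 had at most 1 read in the Klf4 libraries, and KRT10 had 400 and 419 reads against 508 to 548 in GFP. The part of these shifts in the results below was not tested. In bulk RNA, fewer cells of a type and less RNA per cell cannot be told apart.

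No line raised the 10 genes together. In the Oct4 line 2 rose (SESN1, TP53I3) and 2 fell (MDM2, BBC3), where 37.3% of all genes tested were called in either direction. In the Sox2 line 2 rose (SESN1, TP53I3) and 2 fell (BBC3, GDF15), against 41.6% called overall. In the Klf4 line 1 rose (FAS) and 3 fell (BBC3, BAX, TP53I3), against 33.5%. In OSK 2 rose (SESN1, FAS) and 3 fell (CDKN1A, BBC3, BAX), against 39.7%. Calls are limma adjusted p-values under 0.05 over all genes tested. The share of members called, 40% in each single-factor line and 50% in OSK, was thus close to the share over all genes. Libraries that did not overlap GFP at all were also common, for 56.4%, 60%, 54% and 58.5% of all genes with Oct4, Sox2, Klf4 and OSK. The 4 comparisons share the GFP libraries. The median log2 change of the 10 genes was -0.02, 0.07, -0.07 and 0.13 with Oct4, Sox2, Klf4 and OSK, and that of all genes between -0.02 and -0.01.

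**Figure D1:**
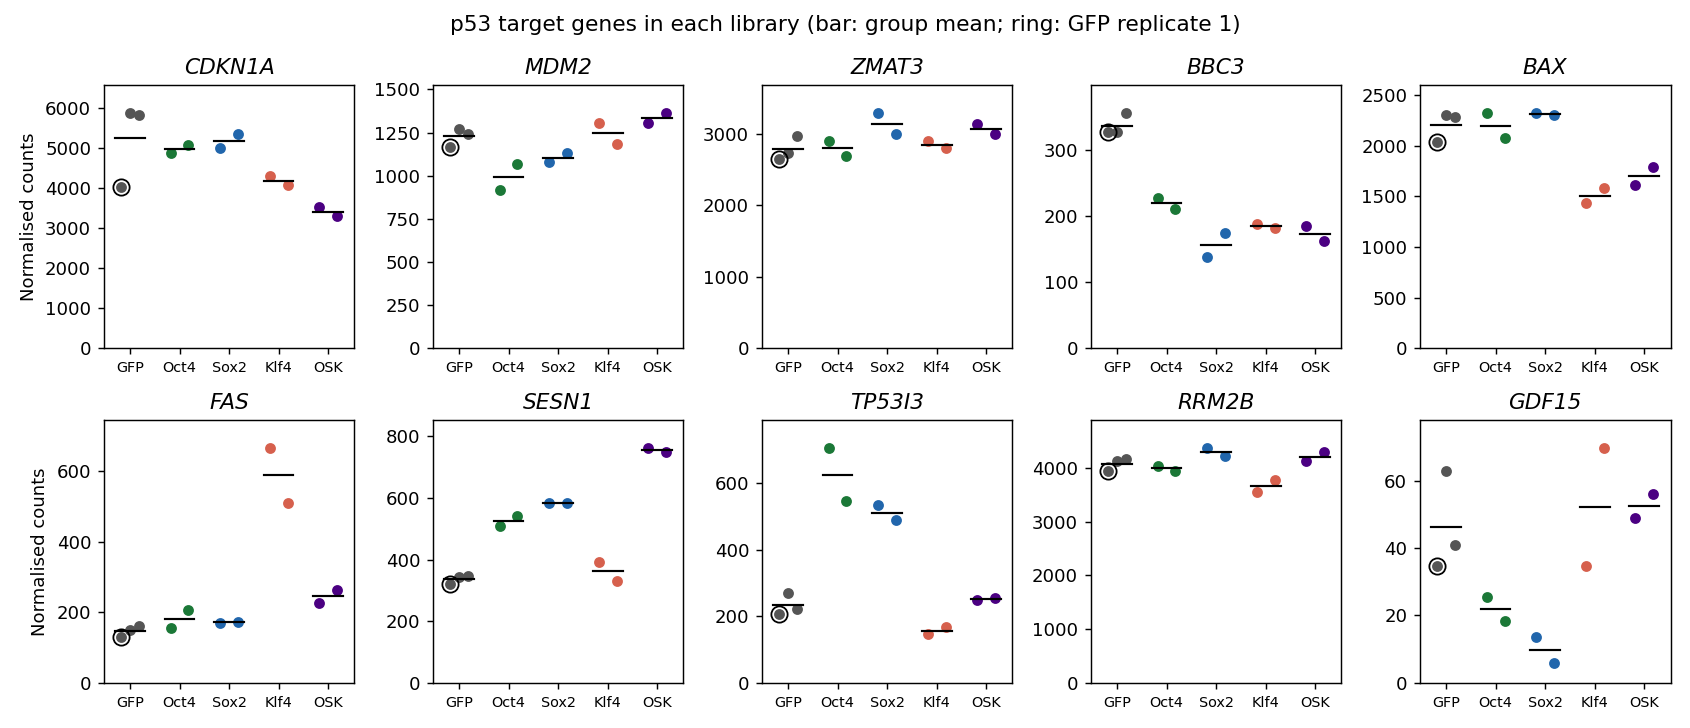
Normalised counts (y axis, from 0) of the 10 genes in every library by line (x axis), with each point 1 library and each bar the group mean. BBC3 is lower in every factor library than in every GFP library, FAS is highest in the Klf4 libraries and SESN1 in the OSK libraries, and the ringed GFP replicate 1 lies apart from the other GFP libraries for CDKN1A.

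Among the genes of arrest and feedback, CDKN1A was not called higher in any line. It had 4018, 5862 and 5822 normalised counts in GFP replicates 1, 2 and 3. The Oct4 libraries had 4879 and 5055, the Sox2 libraries 5003 and 5353, the Klf4 libraries 4296 and 4061, and the OSK libraries 3518 and 3294. The OSK libraries were lowest and did not overlap GFP, while the libraries of the 3 other lines fell between GFP replicate 1 and the other GFP libraries. The log2 change was -0.60 in OSK (SE 0.12; limma adjusted p = 8.41e-04). For Oct4, Sox2 and Klf4 in turn it was -0.05, 0.01 and -0.30 (limma adjusted p = 0.765, 0.978 and 0.0656). The 95% intervals allow at most 1.15-fold of GFP with Oct4, 1.2-fold with Sox2, 0.968-fold with Klf4 and 0.789-fold with OSK. No rise of CDKN1A was seen at an unadjusted p under 0.05 either, nor by edgeR or DESeq2 (0 of 4 lines by each).

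How far CDKN1A fell rested on GFP replicate 1, which had 68.8% of the mean of the other GFP libraries. Without it CDKN1A was lower in every line, with log2 changes of -0.23, -0.175, -0.48 and -0.78 for Oct4, Sox2, Klf4 and OSK (limma adjusted p = 0.00475, 0.0265, 4.52e-06 and 6.80e-09). Comparisons between lines do not use GFP means. OSK was below the Oct4 line by -0.545 (SE 0.13; limma adjusted p = 0.00353) and below the Sox2 line by -0.60 (limma adjusted p = 0.00165). Against the Klf4 line the OSK difference was -0.295 (95% interval -0.58 to -0.01; limma adjusted p = 0.136), which did not pass. None of the comparisons among the single-factor lines passed, with Klf4 minus Oct4 at -0.25, Klf4 minus Sox2 at -0.31 and Sox2 minus Oct4 at 0.06 (limma adjusted p = 0.15, 0.0755 and 0.785). CDKN1A shares 146 of its 3050 exonic bases with DINOL, an RNA gene on the opposite strand, and the use of strand in counting is not given in the sources used here.

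**Figure D2:**
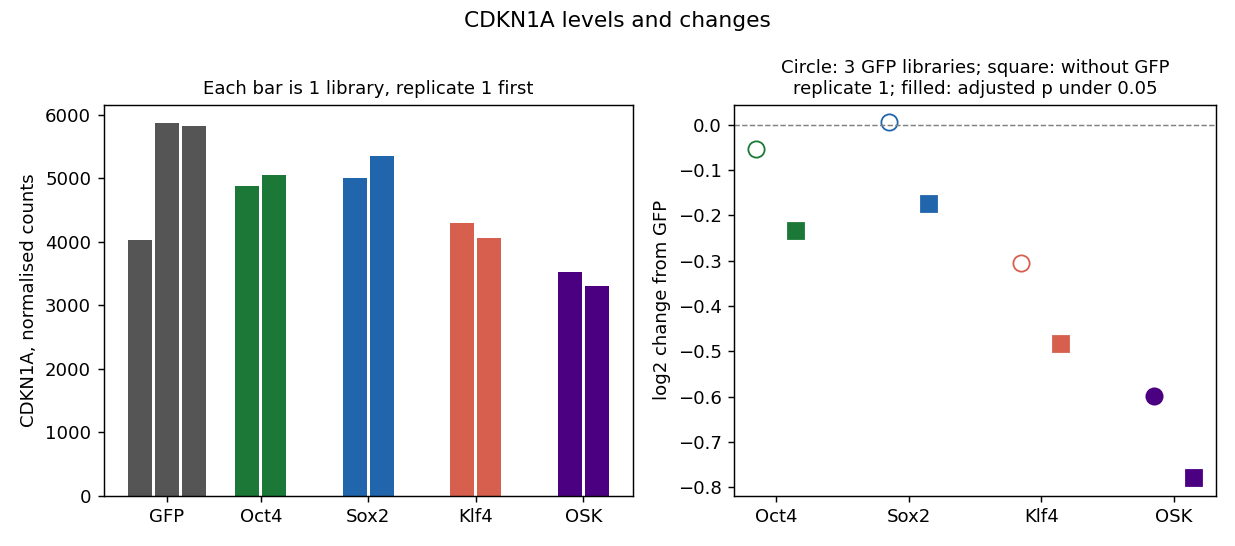
Left, CDKN1A normalised counts (y axis) with each bar 1 library, replicate 1 first in each line (x axis). Right, log2 change from GFP (y axis) with all 3 GFP libraries (circles) and without GFP replicate 1 (squares), filled where the limma adjusted p was under 0.05: 1 of 4 circles is filled and all 4 squares are.

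MDM2, the ligase that closes the feedback loop on p53, stayed within a narrow range. GFP had 1169, 1273 and 1240 normalised counts, the Oct4 line 918 and 1067, the Sox2 line 1080 and 1130, the Klf4 line 1308 and 1184 and OSK 1306 and 1363. The Oct4 libraries were both below every GFP library, and the OSK libraries both above. The log2 change was -0.31 with Oct4 (SE 0.08; limma adjusted p = 0.00613) and 0.12 with OSK (95% interval -0.05 to 0.29; limma adjusted p = 0.256), a fold of at most 1.22 in OSK. With Sox2 it was -0.15 (limma adjusted p = 0.15) and with Klf4 0.02 (limma adjusted p = 0.872). The Oct4 fall was lost without Oct4 replicate 1 (-0.20, limma adjusted p = 0.126). By limma at an unadjusted p under 0.05, edgeR and DESeq2, MDM2 was higher in 0 lines. The element printed above stands before the internal start, and gene-level counts do not separate the starts. MDM2 shares 1224 of its 13284 exonic bases with AC025423.2 on the same strand and with AC025423.4 and CPM on the opposite strand. Strand alone cannot assign the reads of the same-strand overlap.

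ZMAT3, an RNA-binding protein among the steadiest p53 targets, was called in no line. Its libraries ran from 2655 in GFP replicate 1 to 3292 in Sox2 replicate 1. The largest log2 change was 0.17, with Sox2 (95% interval 0.02 to 0.32; limma adjusted p = 0.0613), the 1 line where its unadjusted p was under 0.05. edgeR and DESeq2 called it in 0 lines. That change passed without GFP replicate 3 (0.22, limma adjusted p = 0.0298).

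Of the 3 genes of cell death, BBC3 fell in every line. It encodes PUMA, a BH3-only protein that triggers mitochondrial apoptosis. GFP had 327, 327 and 356 normalised counts, against 228 and 211 with Oct4, 138 and 174 with Sox2, 189 and 182 with Klf4 and 184 and 162 with OSK. Every factor library was below every GFP library. The log2 changes were -0.62, -1.11, -0.86 and -0.96 for Oct4, Sox2, Klf4 and OSK (SE 0.13 for all; limma adjusted p = 0.00115, 2.86e-06, 6.92e-05 and 1.63e-05). The calls held with edgeR and DESeq2 and without GFP replicate 1. BBC3 shares 80 of its 3180 exonic bases with MIR3190 on the opposite strand and MIR3191 on the same strand.

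BAX, the pore-forming protein of the outer mitochondrial membrane, fell where Klf4 was delivered. GFP had 2040, 2300 and 2287 normalised counts, the Klf4 line 1438 and 1580 and OSK 1611 and 1794. The Oct4 libraries (2324 and 2075) and the Sox2 libraries (2321 and 2302) were near GFP. The log2 change was -0.55 with Klf4 (SE 0.08; limma adjusted p = 5.65e-05) and -0.38 with OSK (SE 0.08; limma adjusted p = 0.00126). With Oct4 it was -0.01 (95% interval -0.18 to 0.16) and with Sox2 0.07 (-0.10 to 0.24). BAX was also lower in the Klf4 line than in the Oct4 line (-0.54; limma adjusted p = 1.00e-04) and the Sox2 line (-0.62; limma adjusted p = 2.83e-05).

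FAS, the death receptor, moved the other way in the same lines. GFP had 130, 151 and 161 normalised counts, the Klf4 line 666 and 511 and OSK 227 and 264. Both Klf4 libraries were above every other library. The log2 change was 1.98 with Klf4 (SE 0.15; limma adjusted p = 6.53e-08) and 0.73 with OSK (SE 0.15; limma adjusted p = 0.00109). The Oct4 libraries had 157 and 206 and the Sox2 libraries 171 and 172, with changes of 0.29 (limma adjusted p = 0.155) and 0.22 (limma adjusted p = 0.271). OSK was below the Klf4 line by -1.25 (SE 0.17; limma adjusted p = 4.19e-05). FAS shares 380 of its 4253 exonic bases with ACTA2 on the opposite strand, so part of its reads could come from that gene if strand was not used.

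The redox and metabolic targets split. SESN1, a stress-induced inhibitor of mTORC1 signalling, had 321, 343 and 345 normalised counts in GFP. It reached 509 and 540 with Oct4, 583 and 584 with Sox2 and 762 and 749 with OSK, all above every GFP library. The Klf4 libraries, at 393 and 330, overlapped GFP. On the log2 scale it changed by 0.64, 0.795 and 1.17 for Oct4, Sox2 and OSK (SE 0.09 for all; limma adjusted p = 4.17e-05, 3.23e-06 and 5.14e-08), and the Klf4 value was 0.10 (limma adjusted p = 0.441). OSK exceeded the Oct4 line by 0.53 (limma adjusted p = 5.12e-04), the Sox2 line by 0.37 (limma adjusted p = 0.0074) and the Klf4 line by 1.07 (limma adjusted p = 1.12e-06). SESN1 shares 363 of its 5121 exonic bases with AL390208.1 on the opposite strand.

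TP53I3 encodes PIG3, a quinone oxidoreductase. It shares 80 of its 2312 exonic bases with FAM228B on the opposite strand. GFP had 207, 270 and 221 normalised counts, the Oct4 line 706 and 546 and the Sox2 line 533 and 491. The Klf4 libraries, with 146 and 167, were below every GFP library, and the OSK libraries, with 250 and 255, lay inside the GFP range. TP53I3 changed by 1.42, 1.14 and -0.56 for Oct4, Sox2 and Klf4 (log2, SE 0.13; limma adjusted p = 4.70e-07, 3.91e-06 and 0.00397). Its OSK value was 0.13 (95% interval -0.16 to 0.42; limma adjusted p = 0.49). The Klf4 fall was lost without Klf4 replicate 1 (-0.47, limma adjusted p = 0.0604). OSK was below the Oct4 line (-1.29, limma adjusted p = 3.06e-06) and the Sox2 line (-1.01, limma adjusted p = 3.94e-05) and above the Klf4 line (0.69, limma adjusted p = 0.00266).

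RRM2B, the p53-induced subunit of ribonucleotide reductase, was called in no line against GFP. Its libraries ran from 3557 in Klf4 replicate 1 to 4377 in Sox2 replicate 1. The largest change was -0.16 with Klf4 (95% interval -0.29 to -0.03; limma adjusted p = 0.0612), the 1 line with an unadjusted p under 0.05, and edgeR and DESeq2 called 0 lines. Without GFP replicate 1 that change was called (-0.18, limma adjusted p = 0.0218).

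GDF15, a secreted stress cytokine of the TGF-beta family, rested on 7 to 62 reads per library and had the largest SE of the 10 genes. GFP had 34.8, 62.7 and 40.8 normalised counts, the Oct4 line 25.6 and 18.3, the Sox2 line 13.5 and 5.99, the Klf4 line 34.7 and 69.7 and OSK 48.8 and 56.1. The Sox2 libraries were lowest and the Oct4 libraries next, both below GFP, while Klf4 and OSK overlapped it. GDF15 changed by -2.18 with Sox2 (log2, SE 0.40; limma adjusted p = 3.20e-04) and -1.01 with Oct4 (limma adjusted p = 0.0575). The Oct4 change passed without GFP replicate 1 (-1.19, limma adjusted p = 0.0308). With Klf4 and OSK the changes were 0.14 (95% interval -0.71 to 0.98) and 0.22 (-0.62 to 1.07), so a rise of up to about 2-fold was not detectable at this depth.

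**Figure D3:**
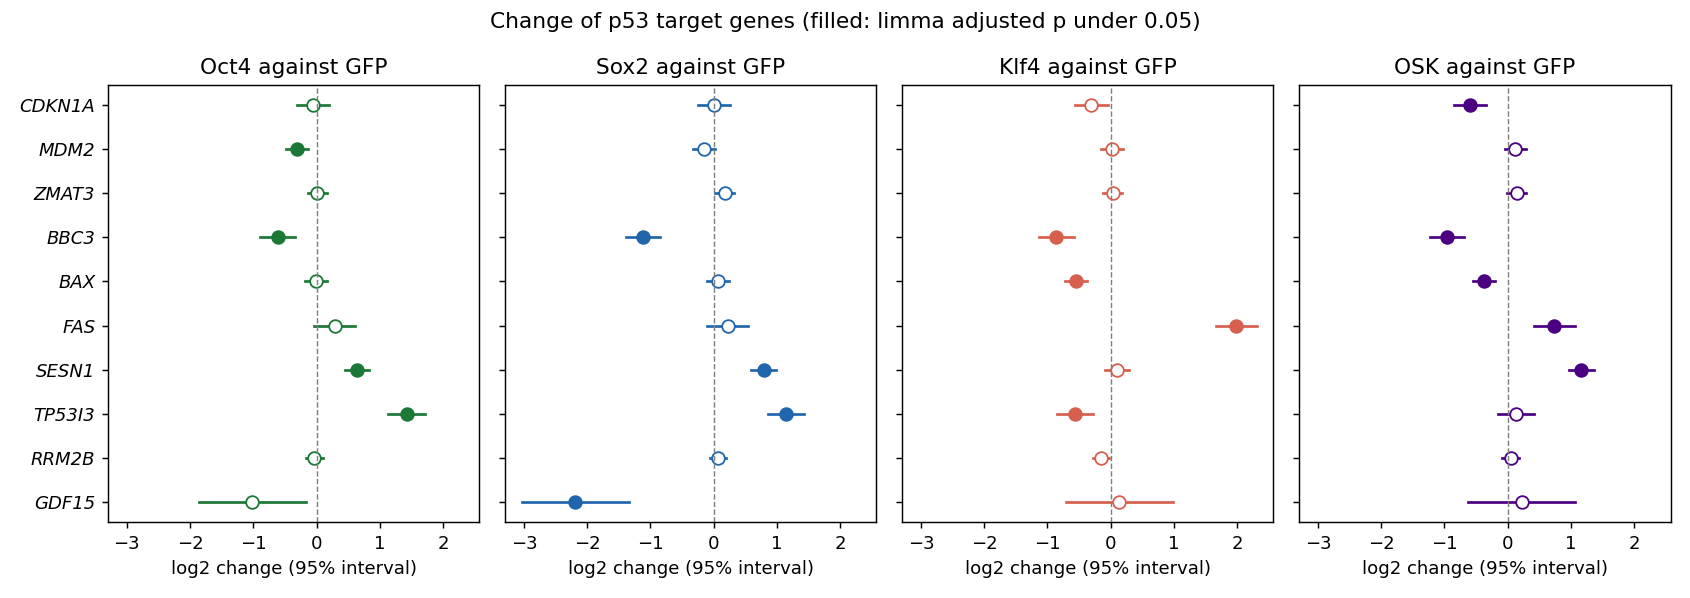
Log2 change from GFP (x axis) of the 10 genes (y axis) in the 4 lines, with points for the estimate, bars for the 95% interval and filled points for a limma adjusted p under 0.05. Filled points lie on both sides of 0 in each line, with FAS farthest right in the Klf4 panel (1.98) and GDF15 farthest left in the Sox2 panel (-2.18).

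GDF15 also answers to the integrated stress response, which ATF4 drives, and a list of 11 of its genes was read beside it. The list moved in both directions, with 1 gene higher and 5 lower with Oct4, 3 and 4 with Sox2, 4 and 6 with Klf4 and 4 and 4 with OSK. The shares called were 54.5%, 63.6%, 90.9% and 72.7%, against 37.3%, 41.6%, 33.5% and 39.7% of all genes. Where GDF15 was lowest, in the Sox2 line, DDIT3 (the factor CHOP) changed by -1.72 and DDIT4 by -2.13, while PSAT1, of serine synthesis, changed by 2.71 (limma adjusted p at most 1.86e-07). DDIT3 fell in all 4 lines, and PPP1R15A by -2.14 with Klf4 and with OSK (limma adjusted p at most 7.49e-11). The part of this response in the GDF15 values was not tested.

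Per length, in RPKM (reads per kilobase of merged exon, scaled to recovered depth), CDKN1A had the highest level of the 10 genes in GFP (99.5 ± 15.9, SD, n = 3). BAX (49.7 ± 0.998) and RRM2B (42.9 ± 0.902) followed, then ZMAT3 (16.8 ± 0.718). BBC3 (6.17 ± 0.298), TP53I3 (5.85 ± 0.672) and MDM2 (5.38 ± 0.073) did not differ from their neighbours beyond their spread, except MDM2 from BBC3. SESN1 (3.83 ± 0.0315), FAS (2.02 ± 0.135) and GDF15 (1.28 ± 0.369) were lowest. Merged exons include stretches that ARPE-19 may not use, such as part of the 13284 bases of MDM2. CDKN1A remained highest per length in every line, at 65.4 ± 3.2 (n = 2) in OSK, where RRM2B had 44.4 ± 1.17 and BAX 38.5 ± 2.83.

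The lines were also set against each other. OSK differed from the Oct4 line in 7 of the 10 genes, where 40.3% of all genes were called. Of the 7, 4 were higher and 3 lower, against 18.4% and 21.9% of all genes. Against the Sox2 line 4 were higher and 3 lower (all genes 20% and 20.5%, 40.5% in either direction). Against the Klf4 line 3 were higher and 1 lower (all genes 9.56% and 11.9%, 21.5% in either direction). MDM2 in OSK exceeded the Oct4 line by 0.43 (SE 0.09; limma adjusted p = 8.72e-04). It was also higher than in the Sox2 line (0.27, limma adjusted p = 0.0208), a call lost without any 1 of the 4 libraries compared (limma adjusted p from 0.0525 to 0.126). BAX was lower in OSK than in the Oct4 line (-0.37, limma adjusted p = 0.00288), which did not pass without OSK replicate 1 (-0.29, limma adjusted p = 0.0519), and than in the Sox2 line (-0.44, limma adjusted p = 6.85e-04). GDF15 in OSK exceeded the Sox2 line by 2.41 (SE 0.435; limma adjusted p = 3.28e-04). Of the narrower calls, FAS against the Oct4 line (0.44, limma adjusted p = 0.0454) was lost under 11 of 21 alternatives. RRM2B against the Klf4 line (0.20, limma adjusted p = 0.0435) was lost under 15, and GDF15 against the Oct4 line (1.235, limma adjusted p = 0.033) under 6. FAS against the Sox2 line (0.51, limma adjusted p = 0.0224) was lost without either Sox2 library or OSK replicate 2 (lowest value 0.40, limma adjusted p = 0.169).

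Between single factors, Klf4 parted from Oct4 in 6 genes, 3 higher and 3 lower (all genes 20% and 21.8%, 41.7% in either direction). From Sox2 it parted in 6, 2 higher and 4 lower (all genes 20.7% and 20.1%, 40.8% in either direction). Sox2 parted from Oct4 in 2, both lower (all genes 18% lower and 15.4% higher, 33.4% in either direction). FAS was higher with Klf4 than with Oct4 (1.69, SE 0.17; limma adjusted p = 5.31e-07) and Sox2 (1.76, limma adjusted p = 3.41e-07). TP53I3 was lower with Klf4 than with Oct4 (-1.99, SE 0.15; limma adjusted p = 2.00e-08) and Sox2 (-1.71, limma adjusted p = 1.17e-07). SESN1 was lower too, by -0.54 against Oct4 (limma adjusted p = 3.90e-04) and -0.69 against Sox2 (limma adjusted p = 3.56e-05). BBC3 was lower with Sox2 than with Oct4 (-0.50, limma adjusted p = 0.0112), a call lost with DESeq2 (adjusted p = 0.058) and without Oct4 replicate 1 (-0.44, limma adjusted p = 0.0768) or Sox2 replicate 1 (-0.33, limma adjusted p = 0.155). GDF15 was lower with Sox2 than with Oct4 (-1.17, limma adjusted p = 0.0498), a call lost under 14 of 21 alternatives.

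The OSK change was set against what the 3 single-factor log2 changes add up to, where 35.9% of all genes differed and 5 of the 10 did. OSK lay above the sum for MDM2 (0.56, SE 0.16; limma adjusted p = 0.0121), BBC3 (1.63, SE 0.25; limma adjusted p = 1.09e-04) and GDF15 (3.28, SE 0.80; limma adjusted p = 0.00416). It lay below for FAS (-1.76, SE 0.30; limma adjusted p = 2.83e-04) and TP53I3 (-1.87, SE 0.27; limma adjusted p = 4.89e-05). For BBC3, which fell to between 46.3% and 65.1% of GFP with each single factor, OSK had 51.4%. A shift against GFP that all factor lines share, such as a difference tied to mC, is part of each of the 3 summed changes. It would part OSK from the sum with no interplay of the factors, and its part was not tested.

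p53 is regulated mainly as a protein, which was not measured. Of 13 genes on a list of its relatives and regulators, 1 was higher and 6 lower with Oct4, 2 and 5 with Sox2, 2 and 5 with Klf4 and 5 and 5 with OSK. The share called was 53.8% in each single-factor line and 76.9% in OSK, against 37.3%, 41.6%, 33.5% and 39.7% of all genes with Oct4, Sox2, Klf4 and OSK. MDM4, which holds p53 inactive beside MDM2, changed by -0.36 with Oct4 (limma adjusted p = 0.00363) and -0.41 with Sox2 (limma adjusted p = 0.00127). The Oct4 change did not pass without Oct4 replicate 1 (-0.31, limma adjusted p = 0.0517). With Klf4 (-0.07) and OSK (-0.12) MDM4 did not pass (limma adjusted p = 0.601 and 0.32). CDKN2A, whose ARF product blocks MDM2, was not called in any line: its changes were 0.33, 0.38, 0.45 and -0.38 with Oct4, Sox2, Klf4 and OSK (lowest limma adjusted p = 0.0675). Its mean was 90.9 ± 5.72 normalised counts in GFP (SD, n = 3) and 69.8 ± 11.6 in OSK (n = 2), and gene-level counts do not separate ARF from p16.

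TP73, a p53 relative that can bind the same elements, was the largest rise on that list. OSK had 446 and 394 normalised counts, and no other library had over 20.9. It changed by 5.85 in OSK (log2, SE 0.64; limma adjusted p = 2.03e-06). An antisense gene, TP73-AS1, adjoins TP73, and reads of such a pair cannot be told apart if strand was not used. TP63 had 22.8 to 34.4 normalised counts in GFP and at most 9.42 in any factor library, and it fell in every line, though with Sox2 (-1.615, limma adjusted p = 0.0263) not without Sox2 replicate 1 (-1.50, limma adjusted p = 0.136), and with Klf4 (-2.01, limma adjusted p = 0.00958) not without Klf4 replicate 2 (-1.89, limma adjusted p = 0.0655). CHEK1, a checkpoint kinase of S phase, rose by 3.17 with OSK, 1.67 with Klf4 and 1.09 with Sox2 (limma adjusted p at most 1.18e-06). The cell cycle list read below also rose in these lines (96.7%, 96.7% and 83.3% of its genes higher with OSK, Klf4 and Sox2). Its part in the CHEK1 values was not tested. TP53BP1, a DNA break response protein, changed by -1.13 with OSK (limma adjusted p = 9.22e-09).

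**Figure D4:**
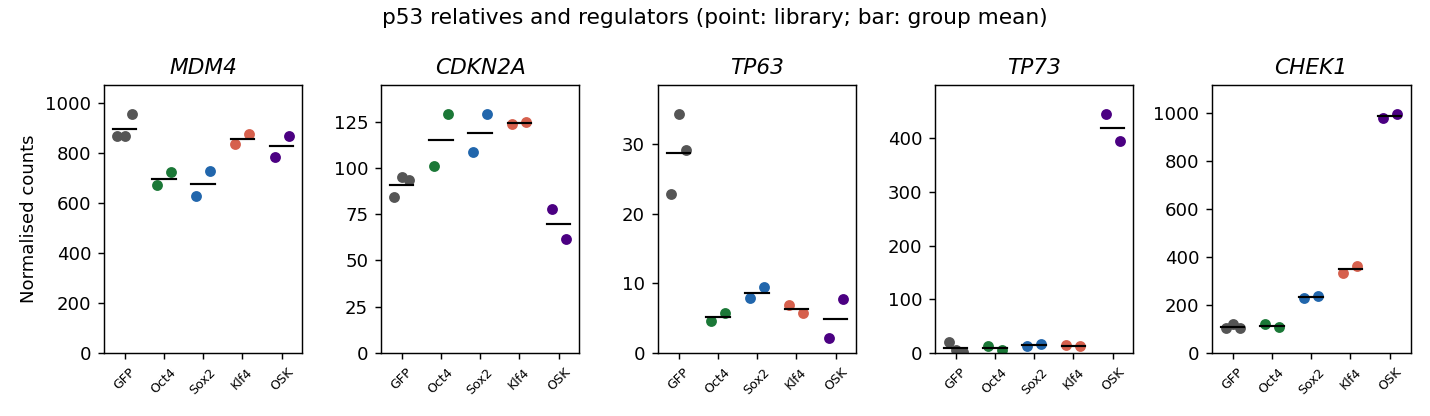
Normalised counts (y axis, from 0) of MDM4, CDKN2A, TP63, TP73 and CHEK1 in every library by line (x axis), with bars for group means. TP63 is below GFP in all factor lines, while TP73 and CHEK1 are highest in OSK.

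Other p53 targets, 55 genes on 5 lists by role, were read from the same fit, and 51 passed the filter. SFN, TNFRSF10C, TP53AIP1 and SPATA18 did not. With Oct4 9 were higher and 18 lower (median log2 change -0.045), with Sox2 12 and 18 (-0.09), with Klf4 12 and 10 (-0.04) and with OSK 11 and 13 (-0.09). Over all genes the shares higher and lower were 20.1% and 17.2% with Oct4, 21.7% and 19.9% with Sox2, 17.6% and 16% with Klf4 and 19.7% and 20% with OSK. On these lists the shares were 17.6% and 35.3%, 23.5% and 35.3%, 23.5% and 19.6%, and 21.6% and 25.5%.

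Of the arrest and feedback targets, GADD45A, a DNA damage and growth arrest protein, fell with Sox2 (-1.14), Klf4 (-1.19) and OSK (-1.38; limma adjusted p at most 3.20e-08). CCNG1, cyclin G1, fell with Sox2 (-0.91, limma adjusted p = 8.89e-09) and, by less, with OSK (-0.21, limma adjusted p = 0.0136). TRIM22, also an interferon-induced gene, rose with Oct4 (1.475), Sox2 (2.39) and OSK (1.40; limma adjusted p at most 1.39e-08). PHLDA3, an inhibitor of Akt, fell with Oct4 (-0.68) and Sox2 (-1.24; limma adjusted p at most 1.56e-06), fell with OSK (-0.29, limma adjusted p = 0.0041) and rose with Klf4 (0.22, limma adjusted p = 0.0285), a call lost without GFP replicate 1 (0.15, limma adjusted p = 0.0618) or either Klf4 library (0.185 and 0.25, limma adjusted p = 0.184 and 0.0651).

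Of the cell death targets, APAF1, the apoptosome scaffold, rose with Oct4 (1.56) and Sox2 (1.855; limma adjusted p at most 1.23e-09). Its mean was 433 ± 35.9 normalised counts in GFP (SD, n = 3) and 415 ± 33.0 (n = 2) with Klf4. PMAIP1, the BH3-only protein NOXA, fell with Oct4 (-1.07, limma adjusted p = 5.39e-04). It was also called lower with Sox2, with 61 reads in each library against 83 to 94 in GFP. AEN, an apoptosis nuclease, fell with Oct4 (-0.37), Sox2 (-0.715) and Klf4 (-0.38; limma adjusted p at most 0.00168). In OSK 20% of the 10 tested death genes were called higher and 0% lower, against 19.7% and 20% of all genes. The 2 called were TNFRSF10B, a TRAIL receptor (0.21, limma adjusted p = 0.0217), and APAF1 (0.34, limma adjusted p = 0.00485). Neither passed without OSK replicate 2 (0.21 and 0.31, limma adjusted p = 0.1 and 0.058), nor TNFRSF10B without OSK replicate 1 (0.21, limma adjusted p = 0.104).

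Of the 6 DNA repair targets, 3 were higher and 1 lower with Klf4 and with OSK (50% and 16.7%, against 17.6% and 16% of all genes with Klf4 and 19.7% and 20% with OSK), 1 and 1 with Sox2 and 1 and 2 with Oct4. With Oct4 REV3L changed by 0.28, PCNA by -0.24 and DDB2 by -0.26, each opposite in sign to its change with Klf4 and OSK (limma adjusted p = 0.00598, 0.00871 and 0.0217). The PCNA call was lost without Oct4 replicate 1 (-0.23, limma adjusted p = 0.0508), and that of DDB2 without GFP replicate 3 (-0.225, limma adjusted p = 0.0758) or Oct4 replicate 2 (-0.21, limma adjusted p = 0.161). DDB2, of nucleotide excision repair, rose with Klf4 (0.435) and OSK (0.73), POLH, the translesion polymerase eta, by 0.68 and 0.71, and PCNA, the replication clamp, by 0.40 and 0.525 (limma adjusted p at most 7.26e-04). The cell cycle list read below also rose with Klf4 and OSK (96.7% of its genes higher in each). Its part in the PCNA values was not tested. REV3L, the catalytic subunit of polymerase zeta, fell by -0.66 and -0.78 in the same lines and by -0.75 with Sox2 (limma adjusted p at most 3.40e-06). ASCC3, a helicase of alkylation repair, rose with Sox2 (1.05, limma adjusted p = 1.45e-09).

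The metabolic and other targets also went both ways. DRAM1, of autophagy, rose with Oct4 (0.53, limma adjusted p = 0.00162) and fell with Sox2 (-0.775), Klf4 (-0.70) and OSK (-0.78; limma adjusted p at most 1.82e-04). CES2, a carboxylesterase, rose with Klf4 (1.05) and fell with Oct4 (-0.73), Sox2 (-1.13) and OSK (-0.49; limma adjusted p at most 6.45e-04). ANKRA2, an ankyrin-repeat protein, rose with Oct4 (1.81, limma adjusted p = 1.17e-09). RAP2B, a small GTPase, rose with OSK (1.16) and Sox2 (0.81) and fell with Oct4 (-0.48; limma adjusted p at most 2.28e-04).

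p21 lowers cell cycle genes by way of the DREAM repressor complex, and a list of 30 such genes was read beside CDKN1A. With Klf4 29 of the 30 were higher and the other 1 was not called (median log2 change 2.34), and the same counts held with OSK (2.31). With Sox2 25 were higher and 5 not called (1.29), and with Oct4 8 were higher, 1 was lower and 21 were not called (0.12). The shares higher were 96.7%, 96.7%, 83.3% and 26.7% with Klf4, OSK, Sox2 and Oct4, against 17.6%, 19.7%, 21.7% and 20.1% of all genes, so the Oct4 share was near that of all genes. MKI67, the proliferation marker, rose by 3.45 with Klf4, 3.25 with OSK and 2.07 with Sox2 (limma adjusted p at most 1.75e-09). NEK2, a centrosome kinase, had 17.9 ± 4.65 normalised counts in GFP (SD, n = 3), 295 ± 68.2 (n = 2) with Klf4 and 196 ± 0.304 (n = 2) with OSK. AURKA, the mitotic kinase, rose with Oct4 (1.195, limma adjusted p = 2.04e-05). The Oct4 count of higher genes was 5 by edgeR, 4 by DESeq2, 5 without Oct4 replicate 1 and 4 without Oct4 replicate 2. The direction of this list was known from earlier results of these data, so it is no independent support.

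**Figure D5:**
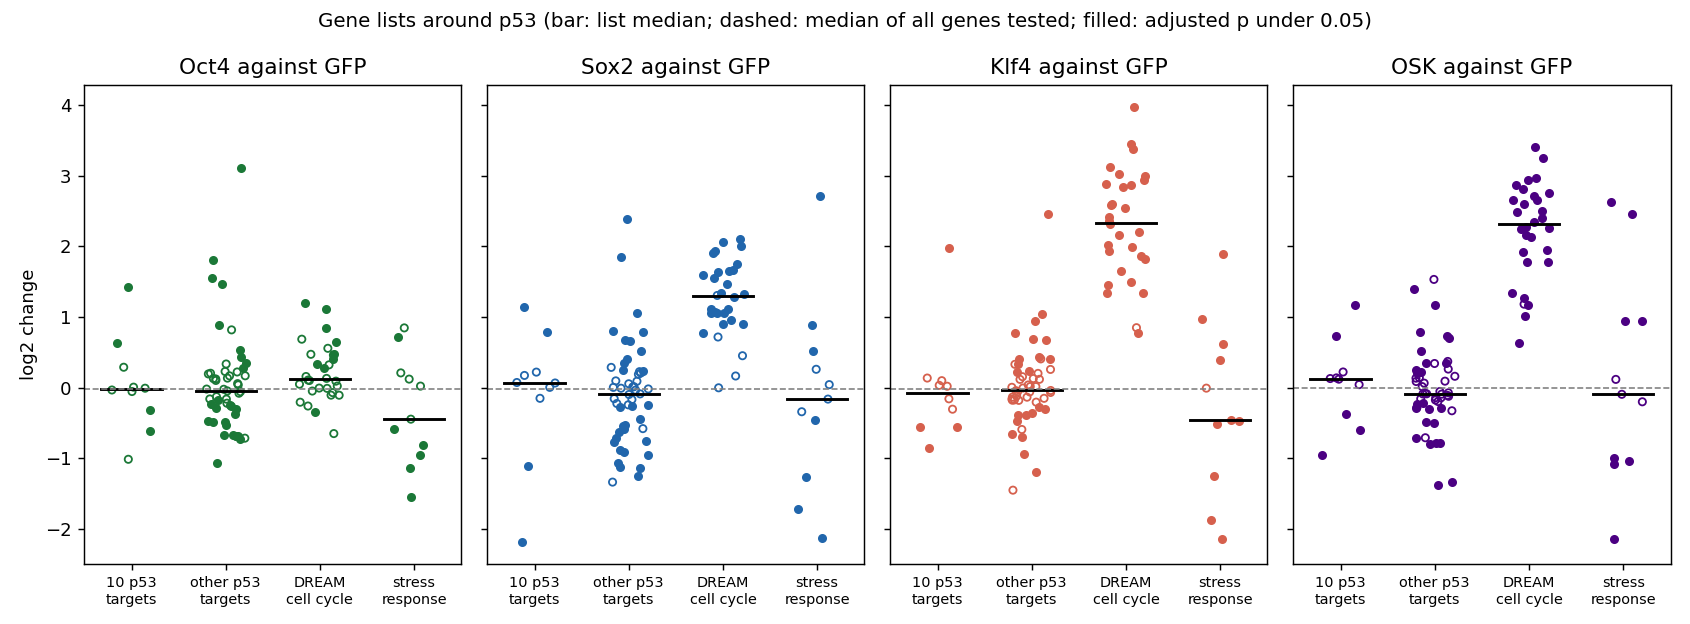
Log2 change from GFP (y axis) of each tested gene in 4 lists (x axis) for the 4 lines, with bars for list medians, the dashed line for the median of all genes tested and filled points for a limma adjusted p under 0.05. The medians of both p53 target lists lie near the dashed line in each panel, and that of the cell cycle list lies above 2 with Klf4 and OSK.

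Of 5 other cyclin-dependent kinase inhibitors, 1 was higher and 1 lower with Oct4, 3 and 2 with Sox2, 2 and 1 with Klf4 and 1 and 1 with OSK. The shares called were 40%, 100%, 60% and 40%, against 37.3%, 41.6%, 33.5% and 39.7% of all genes. CDKN2C, which encodes p18, rose in all 4 lines, from 52.2 ± 7.54 normalised counts in GFP (SD, n = 3) to 565 ± 32.5 (n = 2) with Klf4 and 391 ± 25.3 with OSK (log2 changes 3.42 and 2.89; limma adjusted p at most 3.19e-10). CDKN2B, which encodes p15, fell with Klf4 (-0.90) and OSK (-1.45; limma adjusted p at most 2.48e-05), and like CDKN1A it was lowest in the OSK libraries, at 2258 and 2590 normalised counts. CDKN1C, which encodes p57, rose with Klf4 (1.099) and fell with Sox2 (-1.09; limma adjusted p at most 4.35e-05).

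Over the 11 libraries the genes most like CDKN1A in log2 level were TMEM237 (r = 0.963), SCARF2 (0.953) and the antisense gene TP73-AS1 (0.952), among 10910 genes (10911 for GDF15) with a mean of at least 100 normalised counts. Those most like MDM2 were HNRNPF (0.936), NSUN2 (0.935) and SAMM50 (0.925), and those most like GDF15 were FUZ (0.951), PEX6 (0.945) and ANKZF1 (0.942). Among the 10 genes, CDKN1A correlated with BAX at r = 0.726 and with MDM2 at -0.401, and MDM2 with TP53I3 at -0.791. These r values describe 11 libraries of 5 lines that share scaling and depth, and carry no test.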

How the data were processed

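Per the submitters' processing notes, STAR 2.7.1a and featureCounts 1.6.2 were used, with GRCh38 named among the builds. The annotation, strand setting and normalisation are not given in the sources used here. The deposited signal is in normalised counts: the values are the authors' read counts divided by 1 factor per library and rounded to 2 decimals. Whole reads were recovered by dividing by the value of 1 read. All nonzero values (100% in each library) were whole multiples of it within 0.0061.

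The test was limma 3.58.1 (R 4.3.3; trend) on log2(value + 1), which understates changes of low genes. Tested genes reached 10 in 2 or more libraries, with a mean per line over 11 libraries (6 residual, 9.21 prior degrees of freedom) and Benjamini-Hochberg adjustment at 0.05, in 10 comparisons of lines. Alternatives were edgeR 4.0.16 (quasi-likelihood) and DESeq2 1.42.0 on recovered reads, other pseudocounts, filters, scaling and samples. edgeR called 6774, 7834, 6048 and 7232 genes with Oct4, Sox2, Klf4 and OSK against GFP. The procedure was also run on simulated counts in which few genes changed, in OSK alone, and no library stood apart. That setting differs from these data, and no result here rests on it. Merged exons and site annotation came from GENCODE 29 (GRCh38). The 10 genes and all lists were chosen with earlier results of these data known. Beyond the 10 genes, MDM4 and CDKN2A, at most 3 called rises and 3 called falls per list and comparison with GFP were named. One listed gene is not reported here.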

Additional observations from a re-analysis of the deposited data

How the results depend on the processing

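Of the log2 changes of named genes under the alternatives, 5368 kept their direction and their side of the threshold, 271 lost the call, 27 gained it and 32 changed sign. Of the counts, 635 stayed within 1.5 times and 15 moved. Where a value moved, the cause was not tested. Leaving out 1 library at a time gave 2519 to 4905 genes called between OSK and Klf4 (4049 with all). It gave 1 to 4 members lower with Oct4 and 2 to 5 lower with Klf4, where leaving out GFP replicate 1 and OSK replicate 1 together also gave 5. Other p53 targets lower with Oct4 ranged from 10 to 17 and higher with Sox2 from 7 to 12. Cell cycle genes higher with Oct4 ranged from 4 to 8, and numbered 4 with no filter, 5 with edgeR, 4 with DESeq2 and 4 when the other lines were left out of the fit. Sign changes were of small values. With 1 library left out, the change with Oct4 ranged from -0.234 to 0.038 for CDKN1A, from -0.088 to 0.075 for BAX and from -0.046 to 0.062 for ZMAT3. With Sox2, CDKN1A ranged from -0.175 to 0.098, and was 0 with edgeR and -0.02 with DESeq2. With Klf4 the ranges were from -0.051 to 0.093 for MDM2, from -0.025 to 0.226 for SESN1 and from -0.356 to 0.63 for GDF15. OSK minus Sox2 ranged from -0.01 to 0.321 for BBC3 and from -0.103 to 0.033 for ZMAT3, and OSK minus Klf4 from -0.407 to 0.578 for GDF15. Sox2 minus Oct4 ranged from -0.265 to 0.127 for FAS and from -0.008 to 0.156 for BAX, Klf4 minus Oct4 from -0.028 to 0.08 for ZMAT3, and OSK minus the sum from -0.431 to 0.114 for CDKN1A. Without GFP replicate 1 and OSK replicate 1 together, ZMAT3 with Oct4 was -0.026, CDKN1A with Sox2 -0.175, MDM2 with Klf4 -0.014, GDF15 with Klf4 -0.039 and CDKN1A in OSK minus the sum 0.067. Leaving out a library of a 2-library line assumes that the lone library varies like the other lines. Depth limits genes of few reads, among them GDF15 (7 to 62 reads), TP63 (2 to 34) and, outside OSK, TP73 (2 to 21).

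Replicate numbers were not shown to pair libraries: the differences between replicates 1 and 2 correlated between lines at -0.261 to 0.197. With the replicate block, 6072, 7051, 5322 and 6469 genes were called with Oct4, Sox2, Klf4 and OSK against GFP. The block gave CDKN1A 0.033 and BAX 0.02 with Oct4, and ZMAT3 0.221 with Sox2 (limma adjusted p = 0.0318).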
